A study of Homo sapiens with 4 samples.

Results

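The U3 snoRNA genes SNORD3A, SNORD3B-1, SNORD3B-2, SNORD3C and SNORD3D lie together on the short arm of chromosome 17. Peaks were counted as belonging to them when they overlapped the 150 kb from 18955000 to 19105000 on chromosome 17 (hg19). This gave 32 peaks of the 57601 in 4 deposited lists, which come from chromatin immunoprecipitation followed by sequencing (ChIP-seq). The stretch was chosen by the high DDX5 folds over input of its peaks, which were known from these data, so the height of those peaks is given here as a description.

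U3 is a box C/D small nucleolar RNA. It pairs with the precursor of ribosomal RNA and is needed for the early cleavages that free the RNA of the small ribosomal subunit. Most human snoRNAs are cut out of introns of host genes, whereas U3 genes have promoters of their own and are read by RNA polymerase II. They are known to lie in large repeats on chromosome 17, some of which are inverted. A short read from such a repeat can match more than 1 copy.

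The cells were BT549, an established human breast cancer line without oestrogen receptor alpha, grown without treatment. Of the 4 libraries, 1 was precipitated with an antibody against Fra-1, 1 with an antibody against DDX5 and 1 with normal rabbit IgG, and the last was input DNA. Fra-1 belongs to the Fos family and forms the DNA-binding dimer AP-1 together with a Jun protein. DDX5 unwinds RNA, and it is also known as a coactivator of transcription factors. Fra-1 and DDX5 peaks were each called against input and against IgG. There was 1 library of each kind, so no difference could be tested, and the intervals below cover counting error only.

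RefSeq's table of genes (GRCh38.p14, a later build than that of the peaks) held all 5 U3 genes of the list, each 217 bases long, and 10 other genes or pseudogenes of the U3 family on other chromosomes. In that table the order along chromosome 17 was GRAP, SNORD3B-1, SNORD3B-2, KYNUP2, LOC102724624, SNORD3D, LOC124903946, GRAPL, GRAPL-AS1, KYNUP1, SNORD3A, SNORD3C, KYNUP3 and LOC388436. The U3 genes thus come as a pair, a single gene and a pair. GRAP encodes an adaptor protein with SH2 and SH3 domains, GRAPL is its close relative, the KYNUP entries are pseudogenes, and GRAPL-AS1 and the LOC entries are long noncoding RNA genes. No annotation in hg19 was used, so no peak is assigned here to one U3 gene.

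The start sequences of the neighbours show how alike the copies are. RefSeq gives 300 bases around each gene start, 250 before it and 50 after. The window of GRAPL-AS1 was identical to that of LOC388436 over all 300 bases, and the window of GRAP was identical to that of GRAPL over all 300. The window of LOC102724624 shared an unbroken run of 282 bases with that of GRAPL-AS1, shifted by 18 bases. Of the 27305 windows in the table, 427 (1.56%) had an identical window elsewhere in it. Both windows are printed from 5′ to 3′ on the strand of the gene (GRCh38.p14, chromosome 17, plus strand for LOC102724624 and minus strand for GRAPL-AS1), with the shared run in capitals. They are shown because reads from such runs cannot be placed on 1 copy, and no peak was placed on them.
LOC102724624: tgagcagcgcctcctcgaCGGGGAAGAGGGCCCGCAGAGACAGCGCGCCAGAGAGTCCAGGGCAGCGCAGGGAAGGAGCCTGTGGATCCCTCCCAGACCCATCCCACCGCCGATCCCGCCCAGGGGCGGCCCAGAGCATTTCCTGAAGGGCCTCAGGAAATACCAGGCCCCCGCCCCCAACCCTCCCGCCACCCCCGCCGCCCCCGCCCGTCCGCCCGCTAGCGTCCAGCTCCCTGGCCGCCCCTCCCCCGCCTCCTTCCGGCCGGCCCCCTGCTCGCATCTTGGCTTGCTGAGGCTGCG
GRAPL-AS1: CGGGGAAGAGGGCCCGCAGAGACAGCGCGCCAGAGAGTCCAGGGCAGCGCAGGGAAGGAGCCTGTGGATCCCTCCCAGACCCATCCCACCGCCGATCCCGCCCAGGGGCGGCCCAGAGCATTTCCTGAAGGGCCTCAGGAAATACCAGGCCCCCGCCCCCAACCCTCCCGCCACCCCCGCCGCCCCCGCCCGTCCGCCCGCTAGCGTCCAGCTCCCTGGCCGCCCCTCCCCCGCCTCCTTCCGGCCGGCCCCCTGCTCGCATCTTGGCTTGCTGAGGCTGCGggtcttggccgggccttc
The table of gene starts had no entry for the 5 U3 genes, which are given by name only.

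The stretch held 17 Fra-1 peaks and 7 DDX5 peaks called over input. Over IgG it held 7 Fra-1 peaks and 1 DDX5 peak. Of the DDX5 peaks over input, 5 reached 8-fold, against a background of 2.28% of the 10836 DDX5 peaks in the whole list. The stretch was picked for these folds, so nothing is read from that share. Of the Fra-1 peaks over input, 10 reached 8-fold, against a background of 29.5% of the 30571 in the list. In the DDX5 list no member lay near the 8-fold line: the lowest above it was 24.0-fold and the highest below it 4.73-fold. For Fra-1 the corresponding folds were 10.8 and 6.51. Of the 7 Fra-1 peaks over IgG, 4 reached 8-fold, against a background of 38.8% of that list. With only 7 peaks, nothing is read from that share.

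**Figure D1:**
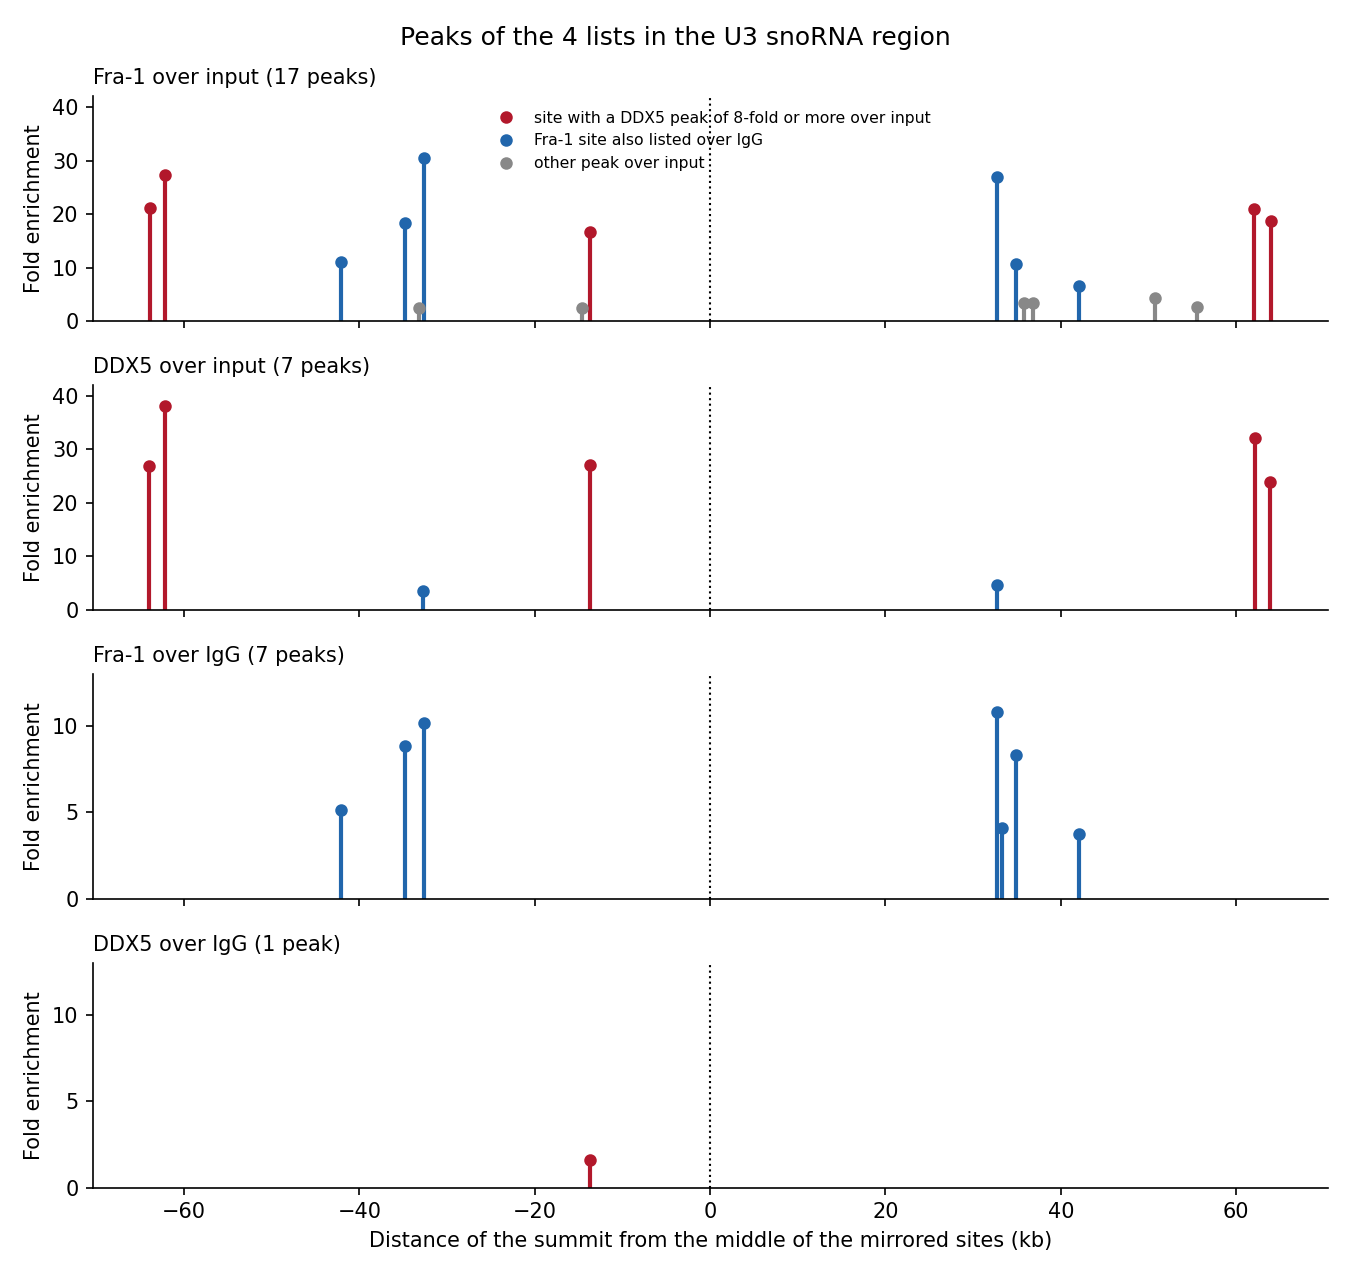
Fold enrichment (vertical axis) of every peak in the stretch, by the distance of its summit in kb from the middle of the mirrored sites (horizontal axis), with 1 panel per list. Red marks sites with a DDX5 peak of 8-fold or more over input, blue marks Fra-1 sites also listed over IgG, and grey marks the others. The 5 red sites are absent from the Fra-1 list over IgG, and the blue sites make up that list.

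The 17 Fra-1 peaks over input were of 3 kinds, set apart by what else was listed at them. At 5 shared sites a DDX5 peak of at least 8-fold lay under the Fra-1 peak. At 6 sites the Fra-1 peak was listed over IgG as well. The other 6 were weak Fra-1 peaks, 2.52-fold to 4.37-fold with pileups of 18 to 25, and no other list had a peak at any of them. The fold is the authors' ratio of ChIP signal to the local control level, and the pileup is the number of ChIP fragments that cover the summit.

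Over input all 5 shared sites were strong for both antibodies, but none of them had a Fra-1 peak over IgG. At 18966529 to 18967581 DDX5 had a pileup of 233 (38.1-fold, the highest of its list) and Fra-1 185 (27.3-fold). At 18965093 to 18966111 DDX5 had a pileup of 164 (26.8-fold) and Fra-1 131 (21.2-fold). At 19015059 to 19016010 DDX5 had a pileup of 217 (27.1-fold) and Fra-1 145 (16.7-fold). DDX5 was the higher of the antibodies at each of these sites.

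The other 2 shared sites were alike in this. At 19091200 to 19092268 DDX5 had a pileup of 191 (32.1-fold) and Fra-1 162 (21.0-fold). At 19092653 to 19093687 DDX5 had a pileup of 167 (24.0-fold) and Fra-1 119 (18.7-fold). By fold the 5 sites held places 1, 2, 4, 5 and 8 in the DDX5 list, and by −log10 q they held places 1, 2, 3, 4 and 6. By pileup they held places 43 to 59, so other DDX5 peaks were taller over a higher input. In the Fra-1 list over input their places by fold ran from 434 to 2451.

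The 5 shared sites stand in the order of a pair, a single site and a pair, as the U3 genes do in the RefSeq table. The DDX5 summits of the first pair were 1766 bp apart and those of the last pair 1723 bp. The single site lay 48.5 kb after the first pair and 75.8 kb before the last, from DDX5 summit to DDX5 summit.

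These peaks were wide for their lists. The 5 DDX5 peaks spanned 952 to 1069 bp, against a list median of 285 bp, and 2.80% of all DDX5 peaks over input were as wide as the narrowest of them. Width went with height in that list: the other 242 DDX5 peaks of at least 8-fold had a median width of 730 bp, and 88 of them (36.4%) were as wide as the narrowest U3 site. The Fra-1 peaks at the same sites spanned 957 to 1054 bp, against a list median of 317 bp. A U3 gene of 217 bases is thus much shorter than each peak. The Fra-1 and DDX5 summits of a site lay 120, 4, 8, 84 and 125 bp apart, in order along the chromosome.

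The input level under the shared sites was not low. Worked out from pileup and fold, it was 4.98 to 7.04 fragments at the DDX5 peaks, against a list median of 3.83, and 5.23 to 7.74 at the Fra-1 peaks, against a list median of 4.45. The highest of both ranges was at the single site. The ChIP pileups of 119 to 233 fragments exceed these levels by far in both libraries. For DDX5 this follows from the choice of the sites by their fold over input.

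Over input, DDX5 was stronger than Fra-1 at all 5 shared sites. The DDX5 fold divided by the Fra-1 fold was 1.27, 1.39, 1.62, 1.53 and 1.28, with a median of 1.39. Among all 6700 overlapping pairs of peaks over input, the DDX5 fold was the higher in 43.1%, and the median quotient was 0.942. The sites were picked for high DDX5 folds, which pushes this quotient up. Among the 234 overlapping pairs elsewhere with a DDX5 fold of at least 8, the median was 1.34 and DDX5 was the higher in 84.2%. Among the 106 of these in which both antibodies reached 8-fold, as they did at the U3 sites, the median was 1.12, DDX5 was the higher in 65.1%, and the quotients ran from 0.163 to 2.33. With the pileups brought to equal depth, DDX5 was still the higher at each of the 5, by 1.33 to 1.69 times.

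**Figure D2:**
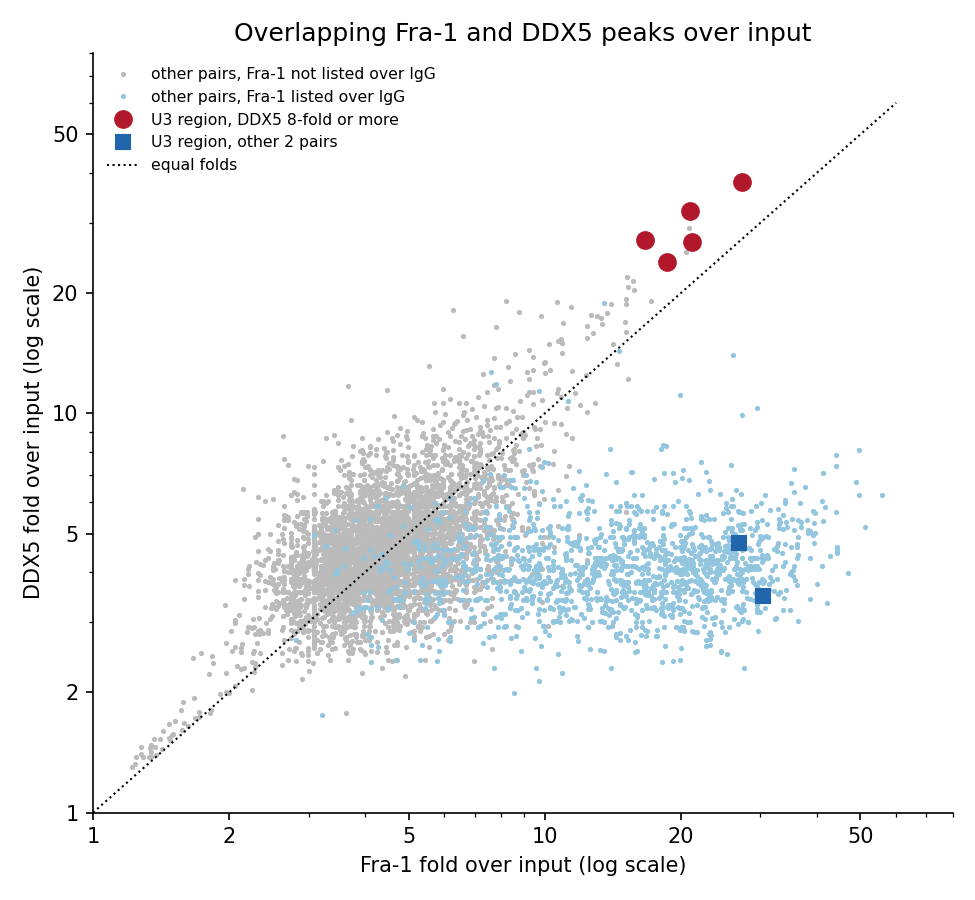
DDX5 fold (vertical axis, log scale) against Fra-1 fold (horizontal axis, log scale) over input for 6700 overlapping pairs of peaks. The 5 U3 sites (red) lie above the line of equal folds at the upper end of the pairs whose Fra-1 peak is not listed over IgG (grey), and the other 2 pairs of the stretch (blue squares) lie among those whose Fra-1 peak is listed over IgG (light blue).

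Pairs elsewhere had different medians by the Fra-1 call over IgG. In the 5143 pairs whose Fra-1 peak was not listed over IgG the median quotient of DDX5 fold to Fra-1 fold was 1.04. In the 1550 pairs whose Fra-1 peak was listed it was 0.270. The Fra-1 fold is the divisor of this quotient, and a Fra-1 call over IgG goes with a high Fra-1 fold. Of Fra-1 peaks over input, 97.6% of those of at least 8-fold were called again over IgG, against 50.5% of all. The split thus favours a low quotient in the listed pairs, so nothing is read from the gap. The 2 remaining pairs of the U3 stretch had quotients of 0.114 and 0.176.

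None of the 5 shared sites had a Fra-1 peak over IgG. Of all 9028 Fra-1 peaks of at least 8-fold over input, 8812 (97.6%) were called again over IgG, against 5 of the 10 in the stretch. The shared sites were chosen by a DDX5 fold of at least 8, however. Among the 106 overlapping pairs elsewhere in which both antibodies reached 8-fold, 14 (13.2%) had a Fra-1 peak over IgG. Its absence was thus usual among such pairs and not particular to the U3 sites. Of the 2451 Fra-1 peaks over input with a fold of at least 16.7, the lowest of the 5, 99.7% were called again over IgG. Only 8 were not, and 5 of these 8 are the U3 sites. The cut was set at the lowest of the U3 sites, so all 5 pass it by construction. One of the other 3 lay at 28974963 to 28975780 on chromosome 1, with a Fra-1 fold of 20.5. Another was at 7052882 to 7053636 on chromosome 12 (17.2-fold), and the last at 43011160 to 43011818 on chromosome 22 (20.9-fold). All 8 overlapped a DDX5 peak of at least 8-fold, as the 5 U3 sites do by definition. The lists do not name genes at those 3 positions, and none is given here.

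The DDX5 list over IgG had a peak at the single site alone, at 19015275 to 19015865, with its summit at 19015661. It had the highest pileup of that list, 216.5 fragments on the scale of the IgG library, and the lowest fold, 1.62, of the 61 peaks. The IgG level there was 133 fragments. That was the highest IgG level of any peak in the DDX5 list over IgG, whose median was 14.0. None of the 16133 Fra-1 peaks over IgG had a level as high. Both lists leave out places where the ChIP signal does not exceed the IgG level. How rare such an IgG level is elsewhere is thus not known from them.

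At the single site the IgG level can be set beside the other libraries. On the scale of the IgG library the Fra-1 pileup was 128 fragments, just below the IgG level of 133, and the DDX5 pileup of 216.5 was above it. The IgG level plus 1 was 16.7 times the input level plus 1. The signal of IgG over input was thus about as large there as that of Fra-1, whose fold over input was 16.7.

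At the other 4 shared sites the IgG level is not known, because no list over IgG had a peak there. On the IgG scale their Fra-1 pileups were 105.2 to 164 fragments and their DDX5 pileups 164 to 232. The DDX5 pileup of 232 exceeded the 216.5 of the single site, yet no DDX5 peak over IgG was listed there. Among the 1771 Fra-1 peaks over IgG with a pileup of at least 100, the lowest fold was 1.71, and 2 were below 2-fold. All of these had passed the call over IgG, so they do not give the fold over IgG at the 4 sites. The part of IgG signal in the DDX5 and Fra-1 folds at these 4 sites was not tested.

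**Figure D3:**
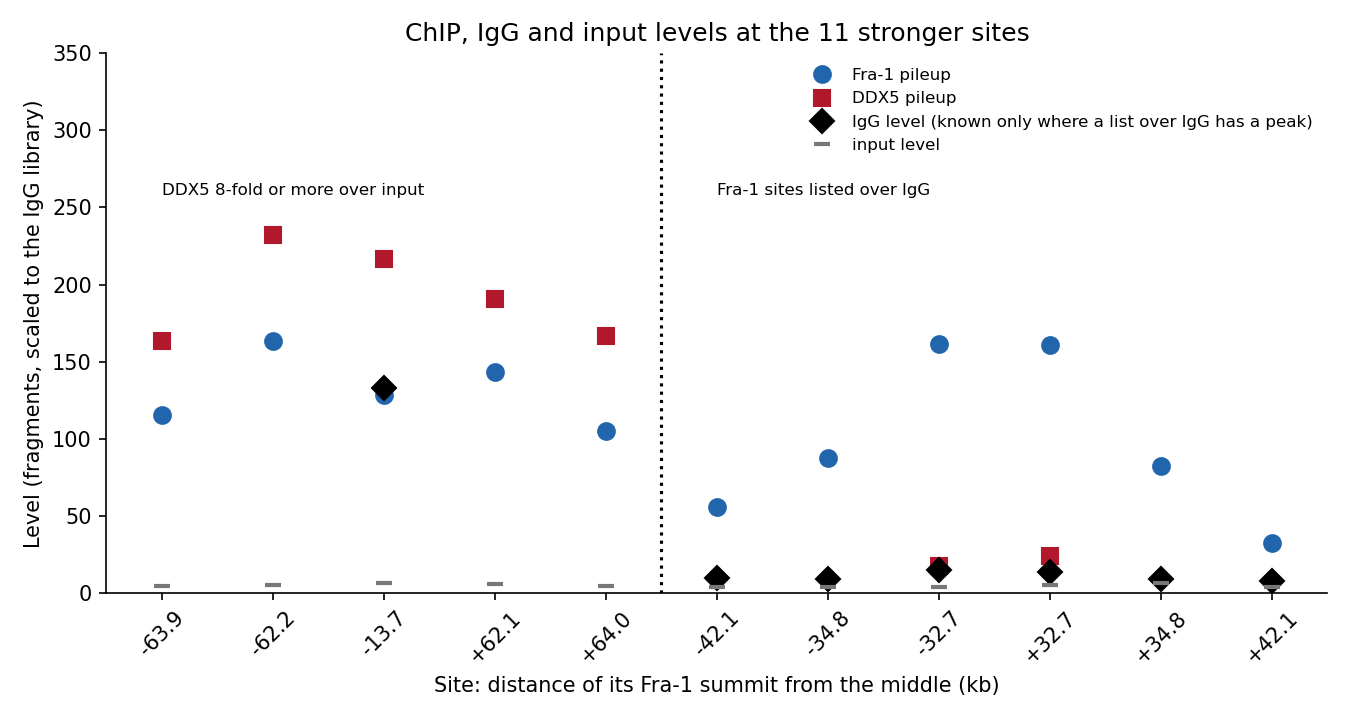
Fra-1 and DDX5 pileups, IgG level and input level in fragments scaled to the IgG library (vertical axis) at the 11 stronger sites (horizontal axis, distance of the Fra-1 summit from the middle in kb). At the single shared site the IgG level of 133 lies beside the Fra-1 pileup of 128. At the 6 Fra-1 sites listed over IgG it is 8.0 to 15.0, and that listing needs an IgG level below the Fra-1 pileup.

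The other 242 DDX5 peaks of at least 8-fold showed the same combination in most cases. A Fra-1 peak over input lay at 234 of them (96.7%, with an exact interval from 93.6% to 98.6%), and one over IgG at 15 (6.20%, 3.51% to 10.0%). DDX5 peaks over IgG overlapped 31 of them (12.8%). A Fra-1 peak over input with none over IgG was found at 219 of the 242 (90.5%), and at 5 of the 5 U3 sites. The U3 sites were higher, with a median pileup of 191 against 44 and a median fold of 27.1 against 9.46. The stretch was picked for high DDX5 folds, so nothing is read from these heights or from the leading places given next. Of the 10 leading DDX5 peaks by −log10 q, 5 were U3 sites, and the 5 others also had a Fra-1 peak over input and none over IgG. One of these 5 was on chromosome 22, starting at 43011166, with a DDX5 fold of 29.1. On chromosome 1 there were 3, starting at 16839794, 17066821 and 28974997, with DDX5 folds of 15.9, 15.3 and 25.3. The last was on chromosome 10, starting at 14227486, with a DDX5 fold of 20.7.

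In the stretch as a whole, all 7 DDX5 peaks over input (100%, with an exact interval from 59.0% to 100%) had a Fra-1 peak over input at the same place, against 61.8% of the whole DDX5 list. Of the Fra-1 peaks, 7 of 17 (41.2%, 18.4% to 67.1%) overlapped a DDX5 peak, against 21.8% of the list. Fra-1 peaks were called again over IgG at 6 of 17 (35.3%, 14.2% to 61.7%), against 50.5%, and DDX5 peaks at 1 of 7 (14.3%, 0.361% to 57.9%), against 0.508%. Each of these intervals, for Fra-1 and for DDX5, takes in the list's own share, and those for 7 DDX5 peaks are wide. The stronger sites are also placed as copies of one another, as described below, so they are not independent.

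The Fra-1 sites listed over IgG had another profile. They formed 2 sets of 3. In the first set, from 18987126 to 18996880, the Fra-1 pileups over input were 63, 99 and 183, with folds of 11.0, 18.4 and 30.5 over input and of 5.16, 8.85 and 10.2 over IgG. In the second set, from 19061844 to 19071599, the pileups were 182, 93 and 37 in order along the chromosome, with folds of 26.9, 10.8 and 6.51 over input and of 10.8, 8.32 and 3.75 over IgG. The order of heights was thus turned round in the second set.

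At these 6 sites the IgG level was 8.0 to 15.0 fragments, far below the 133 of the single shared site but above the median of 5.20 in the Fra-1 list over IgG. Between 77.7% and 97.5% of that list had a lower level. These 6 sites were chosen by their Fra-1 call over IgG, which needs an IgG level below the Fra-1 pileup. Their lower IgG level thus follows in part from that choice, and nothing is read from the contrast with 133. The Fra-1 peak at 19061844 to 19062765 covered 2 peaks of the IgG-called list, the second of them a lower one at 19062499 to 19062725 (4.11-fold), which brings that list to 7. DDX5 was listed only at the tallest site of each set, with pileups of 18 and 24 and folds of 3.48 and 4.73 over input. Neither of these had a DDX5 peak over IgG. The DDX5 pileups there were far below the 164 to 233 of the shared sites, while the Fra-1 pileups of 182 and 183 were close to the 185 of the tallest shared site.

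The stronger sites were placed as mirror images about 1 point. Of the 11 sites (5 shared and 6 listed over IgG), 10 could be joined into 5 pairs whose midpoints lay between 19029289 and 19029430, within 141 bp, although the partners were 65.4 to 128 kb apart. The search was centred midway between the first and last of the 11 sites, so that pair fitted by construction. Partners were accepted within 1000 bp of the mirrored position, which limits how far the midpoints can spread. The 3 pairs of Fra-1 sites listed over IgG had midpoints within 4 bp. Each pair joined sites of the same kind. The first and last shared sites had DDX5 pileups of 164 and 167 and Fra-1 pileups of 131 and 119. The second and the second to last had DDX5 pileups of 233 and 191 and Fra-1 pileups of 185 and 162.

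The single shared site had no partner. Reflected about 19029352, the median of the 5 midpoints, its Fra-1 summit falls at 19043035, and the nearest Fra-1 or DDX5 peak over input was 18.8 or 18.9 kb away. The input level of 7.74 fragments at its Fra-1 peak was the highest of the 5 shared sites, but the mirrored Fra-1 site at 19064196 and 3 of the weak peaks had the same level. How reads that match several copies were placed is not given in the sources used here, and its part in these values was not tested.

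The 3-peak Fra-1 set was found again beyond the stretch, at 19113316 to 19123148. Its summits had gaps of 7219 and 2142 bp, against 7225 and 2170 bp in the first set and 7229 and 2162 bp in the second. Its Fra-1 pileups were 43, 95 and 181, against 63, 99 and 183 and against 37, 93 and 182 in the matching order. The pileups of the middle and the tallest peaks were thus nearly equal in the 3 sets, and those of the lowest differed more. The folds over input were less alike: they were 8.07, 12.3 and 23.4 in the third set, and at the middle peak 18.4, 10.8 and 12.3 in the 3 sets, over input levels of 4.43, 7.74 and 6.78. Folds over IgG were 3.55, 7.73 and 9.47 in the third set. DDX5 was not listed at any of its sites.

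**Figure D4:**
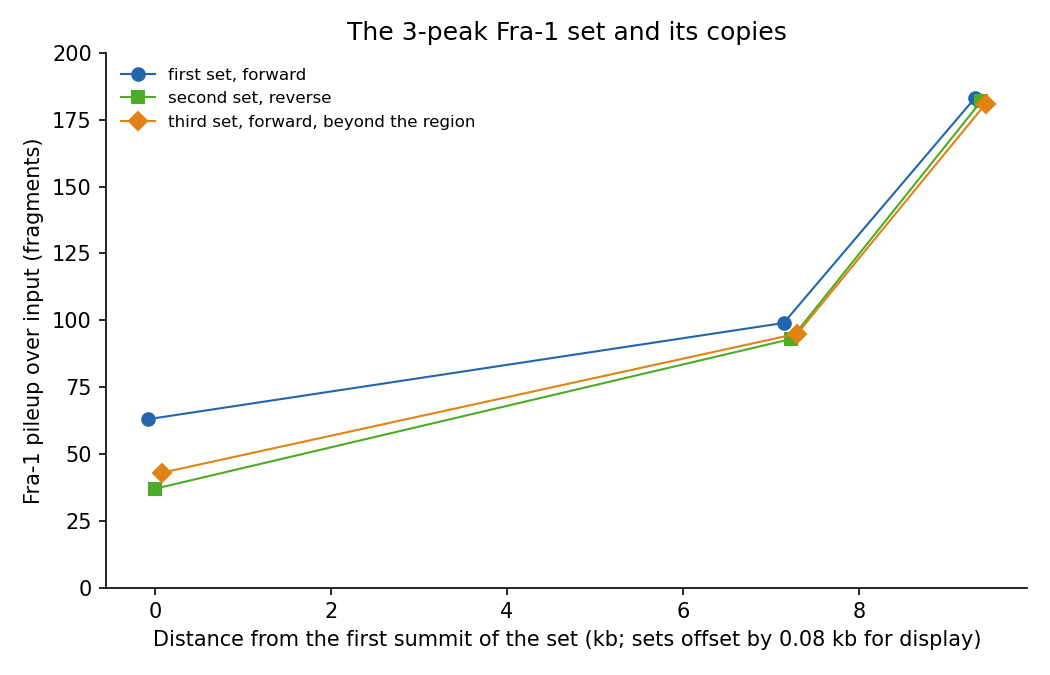
Fra-1 pileup over input in fragments (vertical axis) at the 3 peaks of each set, by distance in kb from the first summit (horizontal axis), with the second set turned round and the third lying beyond the 150 kb. The sets overlie each other at the later peaks (93 to 99 and 181 to 183) and differ at the first (37 to 63).

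In order along the chromosome the first set lay between the first pair of shared sites and the single one, the second between the single one and the last pair, and the third after the last pair. RefSeq's table has LOC102724624 between the first U3 pair and SNORD3D, GRAPL-AS1 between SNORD3D and the last pair, and LOC388436 after it. They are on the plus, minus and plus strands, which is the order of the directions of the 3 sets. The pseudogenes KYNUP2, KYNUP1 and KYNUP3 fall in the same 3 places. The builds differ, so this compares the order alone and places no peak in a gene.

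The edges of the stretch did not cut through peaks. The nearest DDX5 peak over input before it was 26.2 kb away (4.06-fold), and the nearest after it 177 kb away (3.27-fold). For Fra-1 over input the nearest were 46.7 kb before (14.1-fold) and 0.816 kb after (4.11-fold).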

How the data were processed

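Fra-1 and DDX5 ChIP-seq peaks of BT549 cells were taken from 4 deposited lists, each made from 1 ChIP library and 1 control library, with nothing pooled. The submitters' processing notes name CASAVA 1.8, Bowtie 0.12.9, HOMER and the build hg19, without their roles. No source used here names the peak caller or says how reads with several matches were treated. Per the file headers, the authors' values are a pileup (signal: fragment depth at the summit) and a fold enrichment (a ratio). Both −log10 columns have broken headers in the deposited lists. They were read as −log10 p and −log10 q, since the second lies below the first. Read depths are unknown.

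The control level was computed as the pileup plus 1 over the fold, minus 1. Pileups in lists over IgG are scaled to the IgG library. The scale, 0.884 for Fra-1 and 0.998 for DDX5, is the median quotient at summits shared with the list over input, and puts the Fra-1 library at 1.13 times the depth of the DDX5 library. Peaks were matched by at least 1 bp of overlap, taking the nearest summit. Mirror partners were accepted within 1000 bp. Shares have 95% exact binomial (Clopper-Pearson) intervals. The overlap code was tested on simulated data. The code ran in Python 3.11.15 with pandas 2.3.3, numpy 2.4.6 and scipy 1.17.1, and figures were drawn with matplotlib 3.10.9.

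Every peak in the stretch is accounted for. Peaks of at least 8-fold over input and all peaks over IgG are given in full, beside the 10 leading DDX5 peaks. The members, the kinds of site, the mirror pairs, the third set, the start windows and the 3 strong Fra-1 peaks elsewhere without an IgG call were chosen with results of these data known. Alternatives were a stricter threshold, other overlap rules, the other control, a stretch wider by 100 kb on each side and other measures of rank.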

Additional observations from a re-analysis of the deposited data

How the results depend on the processing

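For 24 of the 36 alternatives the value lay inside the main value's interval or, for counts and medians, differed by no more than 1.5 times. For the other 12 it did not. With peaks of at least 8-fold only, the stretch held 10 Fra-1 peaks over input (17 without that threshold), 4 Fra-1 peaks over IgG (7) and 0 DDX5 peaks over IgG (1). With only peaks whose −log10 q was no lower than the median these were 11 Fra-1 peaks over input and 4 over IgG. With 100 kb added on each side the Fra-1 list over IgG held 13. Exchanging input for IgG left 7 Fra-1 peaks and 1 DDX5 peak, and with both lists over IgG the share of DDX5 peaks overlapping Fra-1 was 0% (of 1 peak) and that of Fra-1 peaks overlapping DDX5 was 0% (of 7). Ranked by pileup in place of fold, the median place was in the top 9.69% for Fra-1 over input (18.6% by fold) and in the top 0.535% for DDX5 (0.0461%). Thresholds lower a count, and a wider stretch raises it, by construction; for the other moves the cause was not tested. The median quotient of DDX5 to Fra-1 fold, 1.39, was 1.26 with pileups and 1.53 at the 3 sites with summits within 100 bp. The intervals for shares are wide, as they rest on 7 or 17 peaks, so a share inside its interval can still have moved. Inside them, the share of DDX5 peaks overlapping Fra-1 ran from 71.4% to 100%. That of Fra-1 peaks overlapping DDX5 ran from 29.2% to 50%. No paired analysis was possible because each group has 1 library.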
